A study of Mus musculus with 9 samples.

Results

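The 10 genes described here encode the 7 cyclin-dependent kinase (CDK) inhibitors of the CIP/KIP and INK4 families and the 3 D-type cyclins. They were taken by gene symbol from the annotated expression table, with 1 transcript cluster (the set of probes read as 1 gene) per symbol, the one with the most probes. All 10 had a cluster and all 10 were among the 17962 genes tested, out of 19223 genes with a chosen cluster. Expression was measured on 9 Affymetrix Mouse Gene ST 1.0 arrays of HC11 cells, a mammary epithelial line from BALB/c mice. The arrays fall into 3 groups of 3, which are cells transfected with the forkhead transcription factor FoxF1, cells transfected with the nuclear factor I protein NFI-C2 (a stable form, NFI-C2S, according to the methods), and control cells. The labels give the controls as wild type, while the methods speak of a vector control. All 3 groups share the HC11 background, and the promoter that drove each transfected factor is not given in the sources used here. The methods describe pools of cells and the design text separately grown cultures. Nothing says that each pool came from a transfection of its own, so the p-values below measure the spread between these preparations of RNA and may not cover the spread between independently made lines.

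Cells pass from G1 into DNA synthesis when cyclin D bound to CDK4 or CDK6, and later cyclin E bound to CDK2, phosphorylate the retinoblastoma protein and its relatives, which releases the E2F factors that switch on genes for DNA replication. The INK4 proteins p16, p15, p18 and p19 (Cdkn2a to Cdkn2d) bind CDK4 and CDK6 alone and keep the D cyclins off. The CIP/KIP proteins p21, p27 and p57 (Cdkn1a to Cdkn1c) bind cyclin-CDK complexes, inhibit CDK2 and also help cyclin D-CDK4 complexes to assemble. In the mammary gland, cyclin D1 is known for its role in the growth of alveoli in pregnancy, and p27 and p16 are lost or lowered in many breast tumours.

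The values are log2 expression values in which each cluster has a median of 0 across the 9 arrays. They hold differences between arrays and no level, and no gene can be called more abundant than another. Over the tested genes, the values of a FoxF1 array had an SD of 0.633 to 0.645, those of an NFI-C2 array 0.227 to 0.244 and those of a wild type array 0.199 to 0.207, and arrays of 1 group differed from each other with an SD of 0.107 to 0.157. Neither transfected factor was called higher in its own line on these arrays. The paper describes the FoxF1 cells as overexpressing FoxF1 and measured its RNA by RT-PCR, which is separate from the array values. Foxf1 was 0.20 higher in FoxF1 than in wild type cells (SE 0.142, adjusted p = 0.35) and Nfic was -0.04 in NFI-C2 cells (SE 0.0722, adjusted p = 0.757), and whether the probes read the transfected constructs is not given. Foxf1 was lower in NFI-C2 than in wild type cells, at -1.24 (SE 0.142, adjusted p = 0.000757 by limma), and 1.44 higher in FoxF1 than in NFI-C2 cells (SE 0.142, adjusted p = 8.67e-05), and Nfic differed by -0.26 between FoxF1 and wild type cells (SE 0.0722, adjusted p = 0.0227). The groups are named by their labels. Of 8 epithelial markers, 7 were lower in FoxF1 than in wild type cells, with array means of -4.49 to -3.88 in FoxF1 cells, 0.17 to 0.23 in NFI-C2 cells and 0.58 to 0.59 in wild type cells, and 5 of 8 fibroblast markers were higher, with array means of 0.80 to 1.27 in FoxF1 cells, -0.25 to -0.15 in NFI-C2 cells and -0.11 to -0.05 in wild type cells. Of the 5, 6 and 4 endothelial, immune and adipocyte markers tested, 1 each was higher in FoxF1 cells and 1 endothelial marker was lower. These marker counts stand beside 21.2% of all genes higher and 19.5% lower between FoxF1 and wild type cells. The part of the marker shifts in the results below was not tested, and in RNA from whole cultures fewer cells of a kind and less RNA per cell cannot be told apart.

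FoxF1 cells had more RNA of 3 of the 4 INK4 genes than wild type cells and less RNA of all 3 CIP/KIP genes and of cyclin D2. NFI-C2 cells had more RNA of 2 of the 3 CIP/KIP genes, of 3 of the 4 INK4 genes and of cyclin D2, and less of cyclin D1. The FoxF1 differences of Cdkn1c and Ccnd1 were near the threshold and did not keep their call when some single arrays were left out, and the same holds for the NFI-C2 differences of Cdkn2b and Cdkn2d, which are 2 of the 3 INK4 calls in that line. A gene was called when its limma p, adjusted by the Benjamini-Hochberg method over all 17962 genes, was under 0.05. By this rule 9 of the 10 genes were called between FoxF1 and wild type cells, where 40.7% of all genes were called, with 4 higher (21.2% of all genes) and 5 lower (19.5% of all genes). Between NFI-C2 and wild type cells 7 were called, where 22.0% of all genes were, with 6 higher (9.18% of all genes) and 1 lower (12.8% of all genes). The median size of the difference over the 10 genes was 0.56 on the log2 scale with FoxF1, beside 0.12 over all tested genes, and 0.34 with NFI-C2, beside 0.07.

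**Figure D1:**
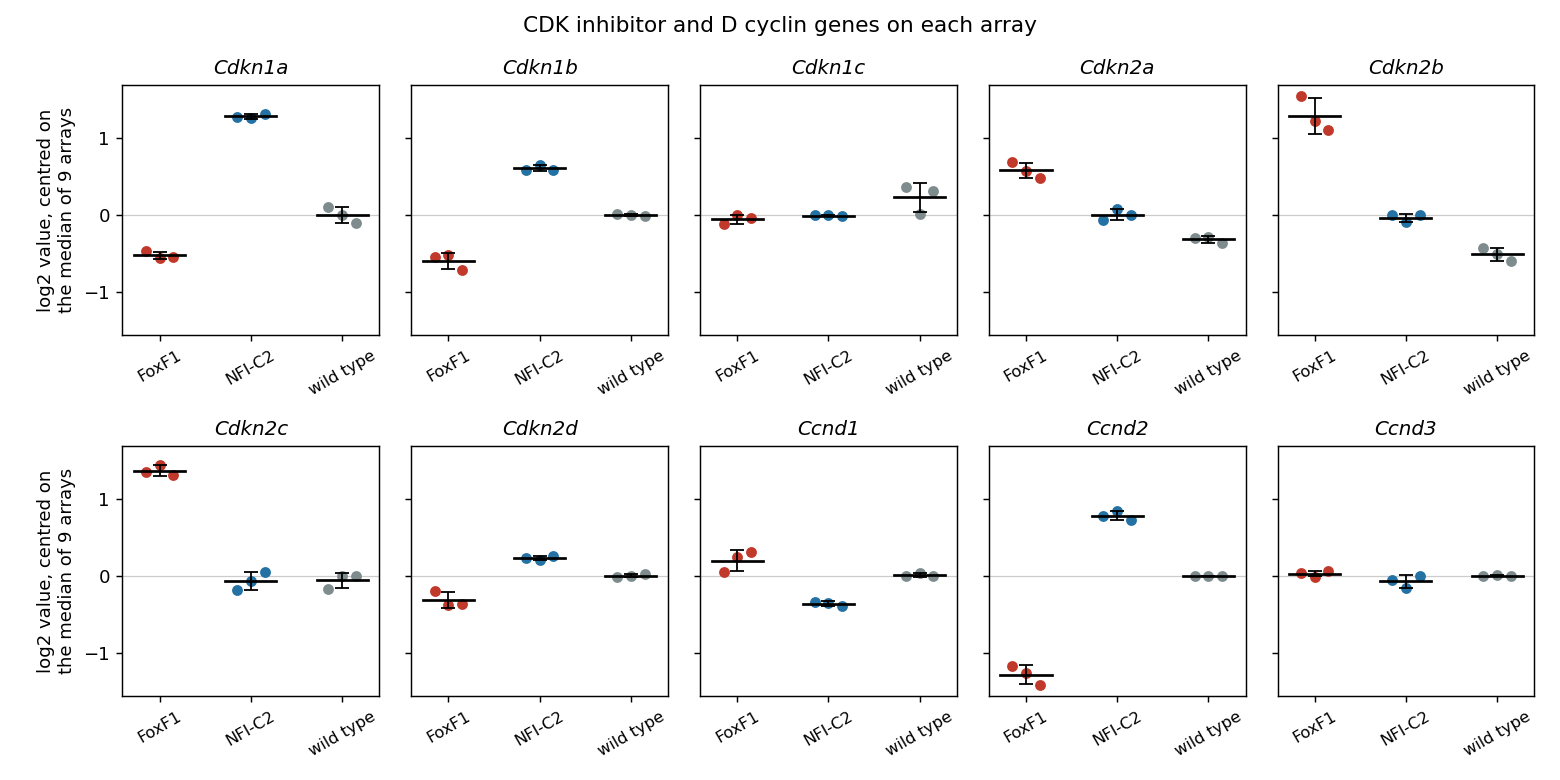
Log2 value of each of the 10 genes on each array (vertical axis, centred on the gene's median over 9 arrays), for FoxF1, NFI-C2 and wild type cells. Points are arrays, horizontal bars are group means and whiskers are 1 SD (n = 3 arrays each). For Cdkn1a, Cdkn1b, Cdkn2d and Ccnd2 the FoxF1 arrays lie below and the NFI-C2 arrays above the wild type arrays.

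Among the INK4 genes, Cdkn2a, Cdkn2b and Cdkn2c were higher in FoxF1 cells and Cdkn2d was lower. Cdkn2b, whose product p15 is known as an inhibitor induced by TGF-β in epithelial cells, had log2 values of 1.55, 1.22 and 1.10 in FoxF1 cells, 0.00, -0.09 and 0.00 in NFI-C2 cells and -0.42, -0.50 and -0.59 in wild type cells. No group overlapped another, and every NFI-C2 array lay between the FoxF1 and the wild type arrays. The difference was 1.80 between FoxF1 and wild type cells (SE 0.108, adjusted p = 6.08e-06 by limma), or 3.47-fold, and 0.48 between NFI-C2 and wild type cells (SE 0.108, adjusted p = 0.0169). FoxF1 cells were 1.32 above NFI-C2 cells (adjusted p = 2.94e-05). The call with NFI-C2 was lost when NFI-C2 replicate 1 or 3 or wild type replicate 2 or 3 was left out, with adjusted p of 0.0571 to 0.0648, while the difference stayed at 0.43 to 0.52 over all arrays left out in turn.

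Cdkn2a encodes p16 and, from another first exon and reading frame, p19Arf, which protects p53 from Mdm2. Its values were 0.69, 0.58 and 0.49 in FoxF1 cells, -0.06, 0.09 and 0.00 in NFI-C2 cells and -0.29, -0.28 and -0.36 in wild type cells. The groups had the same order as for Cdkn2b and did not overlap. FoxF1 cells were 0.89 above wild type cells (SE 0.0584, adjusted p = 9.99e-06 by limma) and 0.58 above NFI-C2 cells (adjusted p = 0.000101), and NFI-C2 cells were 0.32 above wild type cells (SE 0.0584, adjusted p = 0.00692). Of its 33 probes, 27 match transcript variant 2 and 25 match variant 1, so that the RNAs of p16 and p19Arf cannot be told apart.

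Cdkn2c encodes p18, which is known to limit the growth of mammary luminal progenitor cells in mice. It had values of 1.35, 1.45 and 1.31 in FoxF1 cells, -0.18, -0.07 and 0.05 in NFI-C2 cells and -0.16, 0.00 and 0.00 in wild type cells. The FoxF1 arrays stood apart from the 6 others, which overlapped. FoxF1 cells exceeded wild type cells by 1.42 (SE 0.0705, adjusted p = 2.18e-06 by limma), or 2.68-fold, and NFI-C2 cells by 1.43 (adjusted p = 1.79e-06). The NFI-C2 cells differed from wild type cells by -0.01, with a 95% confidence interval of -0.18 to 0.16, and the sign of this small value turned when single arrays were left out.

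Cdkn2d, which encodes the p19 of the INK4 family, was the one INK4 gene that was lower in FoxF1 cells. Its values were -0.19, -0.38 and -0.36 in FoxF1 cells, 0.23, 0.21 and 0.26 in NFI-C2 cells and -0.01, 0.00 and 0.03 in wild type cells. The wild type arrays lay between the 2 transfected lines without overlap. The difference from wild type cells was -0.32 with FoxF1 (SE 0.0492, adjusted p = 0.00124 by limma) and 0.23 with NFI-C2 (SE 0.0492, adjusted p = 0.0138), and FoxF1 cells were 0.54 below NFI-C2 cells on the log2 scale, a 1.46-fold difference (adjusted p = 5.31e-05). Without NFI-C2 replicate 3 or wild type replicate 1 or 2, the NFI-C2 call was lost, at adjusted p of 0.0508 to 0.0556.

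Promoter windows of the INK4 genes Cdkn2b, Cdkn2c and Cdkn2d are shown. The reason is that a factor that binds forkhead sites and a factor that binds nuclear factor I sites were introduced. Windows of 300 bases, from 250 before to 50 after a transcription start, came from a table of RefSeq promoters (GRCm38.p6), where 11 such windows of 7 of the 10 genes were found. The promoters of Cdkn1c, Ccnd1 and Ccnd2 were not analysed here. Capitals mark a forkhead core (TGTTTA) or a nuclear factor I half-site (TTGGC), searched on both strands. Matches to these 2 motifs cannot overlap.
Cdkn2b, chr4:89310983-89311282, minus strand: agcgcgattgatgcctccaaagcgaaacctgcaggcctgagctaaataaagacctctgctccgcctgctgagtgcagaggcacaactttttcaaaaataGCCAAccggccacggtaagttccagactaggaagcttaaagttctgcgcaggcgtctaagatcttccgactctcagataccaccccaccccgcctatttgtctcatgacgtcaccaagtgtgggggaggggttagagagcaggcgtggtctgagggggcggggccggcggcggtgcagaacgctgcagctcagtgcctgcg
Cdkn2c, chr4:109666707-109667006, minus strand: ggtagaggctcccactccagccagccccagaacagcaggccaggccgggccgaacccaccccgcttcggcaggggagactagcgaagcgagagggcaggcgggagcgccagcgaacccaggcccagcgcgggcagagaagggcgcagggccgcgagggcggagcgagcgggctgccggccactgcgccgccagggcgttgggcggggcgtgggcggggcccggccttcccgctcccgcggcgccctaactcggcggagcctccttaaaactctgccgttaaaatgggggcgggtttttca
Cdkn2d, chr9:21291160-21291459, minus strand: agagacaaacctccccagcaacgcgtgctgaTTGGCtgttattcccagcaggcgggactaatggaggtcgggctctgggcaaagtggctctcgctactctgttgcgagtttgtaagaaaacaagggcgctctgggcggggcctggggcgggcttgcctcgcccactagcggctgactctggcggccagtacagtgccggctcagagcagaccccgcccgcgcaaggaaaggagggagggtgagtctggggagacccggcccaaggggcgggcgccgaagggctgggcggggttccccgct
The window of Cdkn2b had 1 half-site on the strand opposite to the gene, beginning 151 bases before the start, and that of Cdkn2d had 1, beginning 219 bases before the start. Neither window of Cdkn2a and neither window of Cdkn2c had a match to either motif. The windows of Cdkn2a and the other window of Cdkn2c are not shown.

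On the chromosome, the clusters of Cdkn2a (chr4:88920377-88940536, minus strand, NCBIM37) and Cdkn2b (chr4:88952198-88956863, minus strand) are neighbours, with 11661 bases between them and no other tested gene there. The next tested genes outward were LOC625574, which differed from wild type cells by -0.21 with FoxF1 (adjusted p = 0.167 by limma), and Dmrta1, which differed by 0.02 (adjusted p = 0.575). Cdkn2c (chr4:109333481-109338280, minus strand) and Cdkn2d (chr9:21092903-21095513, minus strand) lie elsewhere. The tested neighbours of Cdkn2c were Rnf11 at 183892 bases and Faf1 at 10951 bases. They were higher in FoxF1 than in wild type cells by 0.46 and 0.64 (adjusted p = 0.00127 and 7.55e-05 by limma). With NFI-C2 they differed in opposite directions, by -0.32 and 0.22 (adjusted p = 0.0163 and 0.0338). The tested neighbours of Cdkn2d, Kri1 at 497 bases and Ap1m2 at 4388 bases, were lower in FoxF1 cells, at -0.36 and -4.81 (adjusted p = 0.00924 and 8.92e-09). With NFI-C2 these 2 differed by 0.27 and -0.09 (adjusted p = 0.0595 and 0.53).

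The CIP/KIP genes went down in FoxF1 cells, and Cdkn1a and Cdkn1b went up in NFI-C2 cells. Cdkn1a, whose product p21 is the classical target of p53, had values of -0.46, -0.55 and -0.53 in FoxF1 cells, 1.28, 1.26 and 1.32 in NFI-C2 cells and 0.10, 0.00 and -0.10 in wild type cells. All 3 groups were separate, with the NFI-C2 arrays far above both others. Cdkn1a was 2.43-fold higher in NFI-C2 than in wild type cells, a difference of 1.28 (SE 0.0504, adjusted p = 5.53e-06 by limma), and it was lower by 0.52 in FoxF1 cells (a log2 difference of -0.52, SE 0.0504, adjusted p = 9.24e-05). FoxF1 cells were 3.49-fold below NFI-C2 cells (log2 difference -1.80, adjusted p = 9.36e-08). The platform annotation pairs the Cdkn1a cluster (chr17:29230720-29237667, plus strand, NCBIM37) also with 4930567H12Rik, and 26 of its 30 probes match the Cdkn1a transcript.

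Cdkn1b encodes p27, which holds resting cells in G1. It had values of -0.54, -0.52 and -0.71 in FoxF1 cells, 0.59, 0.66 and 0.59 in NFI-C2 cells and 0.02, 0.00 and -0.01 in wild type cells. The 3 groups did not overlap and were nearly symmetric about the wild type arrays. The differences from wild type cells were -0.59 with FoxF1 (SE 0.0491, adjusted p = 3.81e-05 by limma) and 0.61 with NFI-C2 (SE 0.0491, adjusted p = 0.000142). Between the 2 transfected lines it was -1.20, a 2.30-fold lower value in FoxF1 cells (adjusted p = 6.83e-07). A second cluster of 25 probes, at chr6:134875352-134875513 beyond the end of the first (chr6:134870435-134874331, plus strand, NCBIM37), gave -0.57, 0.65 and -1.22 for the same 3 differences. The tested gene before Cdkn1b on the chromosome was Gpr19, at a distance of 22556 bases. Gpr19 differed from wild type cells by -0.53 with FoxF1 (adjusted p = 0.00171) and by 0.46 with NFI-C2 (adjusted p = 0.00847). On the other side, at 59265 bases, Apold1 showed no such shift. Its difference from wild type cells was 0.00 in the FoxF1 line, while the NFI-C2 line differed by -0.003 (adjusted p = 0.954 by limma).

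Cdkn1c encodes p57, an imprinted CDK inhibitor active mainly in development. Its values were -0.12, 0.00 and -0.03 in FoxF1 cells, 0.00, 0.00 and -0.01 in NFI-C2 cells and 0.36, 0.02 and 0.31 in wild type cells. The transfected lines overlapped each other, and wild type replicate 2 lay close to them while the other 2 wild type arrays were higher. The difference of -0.28 between FoxF1 and wild type cells was called (SE 0.0836, adjusted p = 0.0286 by limma), but no longer when any 1 FoxF1 array or wild type replicate 1 or 3 was left out (adjusted p of 0.0531 to 0.0983). With NFI-C2 the difference was -0.24 (SE 0.0836, 95% confidence interval -0.43 to -0.04, adjusted p = 0.0921), and it passed the threshold without wild type replicate 2, at -0.34 (adjusted p = 0.00215). FoxF1 cells differed from NFI-C2 cells by -0.05, with an interval of -0.24 to 0.15. These intervals, unlike the adjusted p, take no account of the number of genes tested.

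The promoter windows of Cdkn1a and Cdkn1b are shown because these genes moved in opposite directions in the 2 lines, and 1 of them carries both motifs. The marking and the source are the same as above. For Cdkn1a the second of 2 windows is given.
Cdkn1a, chr17:29093519-29093818, plus strand: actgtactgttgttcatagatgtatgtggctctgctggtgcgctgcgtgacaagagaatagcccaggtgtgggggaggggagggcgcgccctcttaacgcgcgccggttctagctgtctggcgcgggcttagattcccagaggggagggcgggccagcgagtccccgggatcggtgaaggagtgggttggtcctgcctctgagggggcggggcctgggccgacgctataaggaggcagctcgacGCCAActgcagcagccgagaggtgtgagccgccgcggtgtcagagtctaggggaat
Cdkn1b, chr6:134920151-134920450, plus strand: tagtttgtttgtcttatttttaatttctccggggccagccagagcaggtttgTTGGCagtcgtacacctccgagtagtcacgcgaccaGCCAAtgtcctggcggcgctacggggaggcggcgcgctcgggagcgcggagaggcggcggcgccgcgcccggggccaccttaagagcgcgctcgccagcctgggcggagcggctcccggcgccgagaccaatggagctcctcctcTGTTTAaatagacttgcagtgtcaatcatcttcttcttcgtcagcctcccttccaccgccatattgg
The Cdkn1b window had 1 forkhead core beginning 17 bases before the start and 2 nuclear factor I half-sites, beginning 198 bases and, on the opposite strand, 162 bases before it. The Cdkn1a window had 1 half-site, on the opposite strand at 6 bases before the start, and its first window had no match. Over all 11 windows of the 10 genes, 4 had the half-site (36.4%), beside 46.7% of the 32851 windows in the RefSeq table, and 2 had the forkhead core (18.2%, in Cdkn1b and Ccnd3), beside 13.4%. The full palindrome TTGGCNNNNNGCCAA and the E2F motifs TTTCGCGC and TTTGGCGC were in none of the 11 windows and in 0.0365%, 0.323% and 0.514% of all windows, and the last of them contains the letters of the half-site. The GC box GGGCGG, bound by Sp1 and related factors, was in 9 of the 11 windows (81.8%), beside 35.7% of all windows. Of these 11 windows, 10 had a GC content above the median of 52.7% over all windows, and the part of GC content in this contrast was not tested. A match is a run of letters and does not show that a factor binds there.

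The D cyclins each behaved differently. Ccnd2, whose product cyclin D2 is a partner of CDK4 and CDK6, had values of -1.17, -1.26 and -1.41 in FoxF1 cells, 0.78, 0.85 and 0.73 in NFI-C2 cells and 0.00, 0.00 and 0.00 in wild type cells. The groups did not overlap, with the FoxF1 arrays below and the NFI-C2 arrays above the wild type arrays. FoxF1 cells were 2.43-fold below wild type cells, a log2 difference of -1.28 (SE 0.0595, adjusted p = 1.53e-06 by limma), and NFI-C2 cells were 1.73-fold above them, a difference of 0.79 (SE 0.0595, adjusted p = 0.000107). Between the 2 lines the difference was -2.07, or 4.19-fold (adjusted p = 1.06e-07). On the wild type arrays 2 values were equal within 1e-06 and the SD was 0.000336, and equal values on arrays of 1 group also occurred for Cdkn1c and Cdkn2b in NFI-C2 cells, which lowers the spread that enters their tests. The cluster used has 27 probes (chr6:127075726-127101066, minus strand, NCBIM37), all matching the Ccnd2 transcript. A second cluster with this symbol, of 9 probes at chr6:127232081-127232527, differed by 0.01 or less in size in every comparison, and 1 of its 9 probes matched the only transcript listed for it, which is one of Calm2. The mean of both clusters gave differences of -0.64 with FoxF1, 0.39 with NFI-C2 and -1.03 between FoxF1 and NFI-C2 cells.

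Ccnd1, whose product cyclin D1 is needed for the development of mammary alveoli in mice, moved in the opposite direction to Ccnd2 in both lines. It had values of 0.05, 0.24 and 0.31 in FoxF1 cells, -0.33, -0.35 and -0.39 in NFI-C2 cells and 0.00, 0.04 and 0.00 in wild type cells. FoxF1 replicate 1 lay just above the highest wild type array (0.05 against 0.04), whereas the NFI-C2 arrays were clear of both other groups. With NFI-C2, Ccnd1 was lower by a log2 difference of -0.37 (SE 0.0614, adjusted p = 0.00442 by limma). With FoxF1 the difference of 0.19 was called (SE 0.0614, adjusted p = 0.0408), but the call was lost without FoxF1 replicate 2 or 3 or any 1 wild type array, over which the value ran from 0.14 to 0.20 at adjusted p of 0.0768 to 0.125. After quantile normalization it was 0.09 (adjusted p = 0.179). FoxF1 cells were 0.56 above NFI-C2 cells, or 1.47-fold (adjusted p = 0.000158).

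Ccnd3, which encodes the third D cyclin, was not called in any comparison. It had values of 0.04, -0.01 and 0.06 in FoxF1 cells, -0.05, -0.16 and 0.00 in NFI-C2 cells and 0.00, 0.01 and 0.00 in wild type cells. The FoxF1 arrays overlapped the wild type arrays. The 95% confidence intervals of the log2 difference, not adjusted for the number of genes tested, were -0.07 to 0.12 between FoxF1 and wild type cells, -0.17 to 0.02 between NFI-C2 and wild type cells and 0.01 to 0.20 between FoxF1 and NFI-C2 cells. The difference between the 2 transfected lines, 0.10 (adjusted p = 0.0871 by limma), passed the threshold without NFI-C2 replicate 3, at 0.14 (adjusted p = 0.0265).

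**Figure D2:**
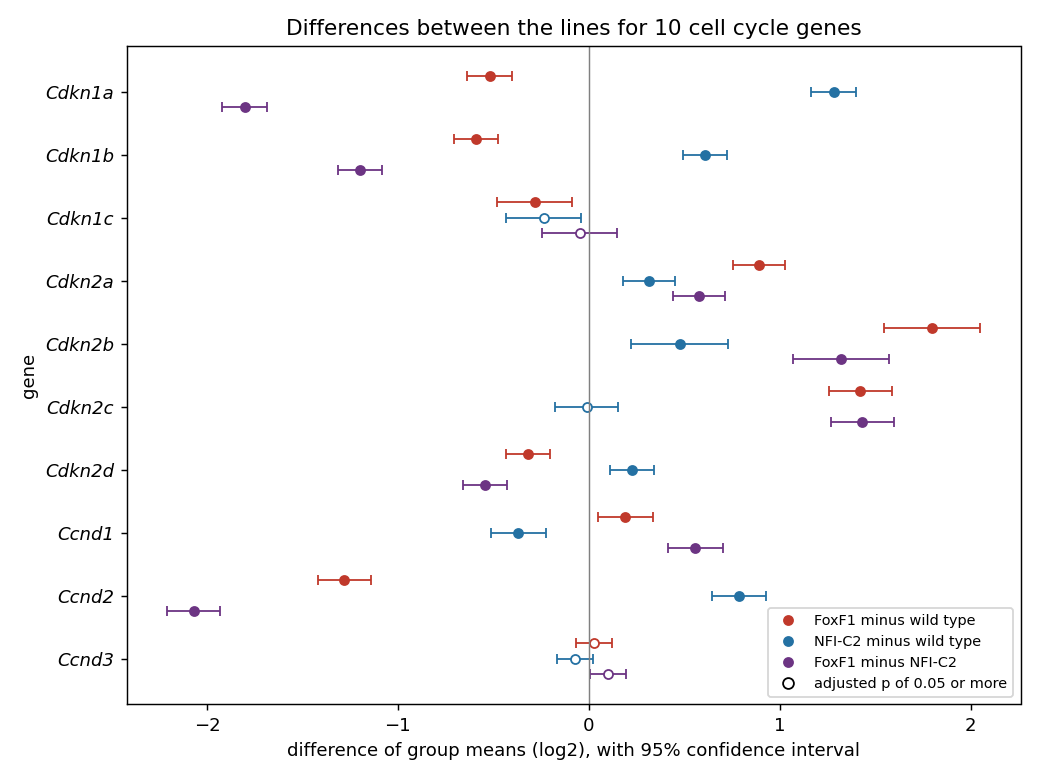
Difference of group means on the log2 scale (horizontal axis) with its 95% confidence interval for each of the 10 genes and each of the 3 comparisons. The intervals are not adjusted for the number of genes tested. Filled points had an adjusted p under 0.05. Plotted values include -2.07 for Ccnd2 and -1.80 for Cdkn1a between FoxF1 and NFI-C2 cells and 1.80 for Cdkn2b between FoxF1 and wild type cells.

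Set side by side, the 2 lines differed from wild type cells in opposite directions for 5 of the 10 genes (Cdkn1a, Cdkn1b, Cdkn2d, Ccnd1 and Ccnd2), which 8.25% of all tested genes also did, and in the same direction for 2 (Cdkn2a and Cdkn2b), as did 8.09% of all genes. Both comparisons use the same 3 wild type arrays. Tested directly, FoxF1 cells differed from NFI-C2 cells in 8 of the 10 genes, where 43.8% of all genes were called, with 4 higher in FoxF1 cells (24.0% of all genes) and 4 lower (19.8% of all genes). The INK4 genes Cdkn2a, Cdkn2b and Cdkn2c and cyclin D1 were the 4 higher, and Cdkn1a, Cdkn1b, Cdkn2d and Ccnd2 the 4 lower. A change of at least 1.5-fold together with the adjusted p was met by 5 genes between FoxF1 and wild type cells (16.6% of all genes), by 3 between NFI-C2 and wild type cells (5.22% of all genes) and by 5 between FoxF1 and NFI-C2 cells (19.4% of all genes). The arrays of the groups did not overlap for 9, 8 and 8 of the 10 genes in these comparisons, beside 46.5%, 33.6% and 48.4% of all genes. Quantile normalization, which gives all 9 arrays the same distribution although their SDs differ, moved several sizes by over 1.5 times with the direction kept. It was applied to the centred values, so it equalizes the spread of the deviations between arrays and does not normalize expression levels. After it the FoxF1 differences from wild type cells were -0.30 for Cdkn1a, -0.34 for Cdkn1b and -0.65 for Ccnd2, and the NFI-C2 differences from wild type cells were 0.85 for Cdkn2a, 1.44 for Cdkn2b and -0.57 for Ccnd1, all with an adjusted p under 0.05, and -0.39 for Cdkn1c (adjusted p = 0.0702 by limma). FoxF1 cells were then 0.33, 0.86 and 0.95 above NFI-C2 cells for Cdkn2a, Cdkn2b and Cdkn2c. The order of sizes also changed. The FoxF1 difference from wild type cells was then 2.30 for Cdkn2b, 1.18 for Cdkn2a and 0.99 for Cdkn2c, and that between FoxF1 and NFI-C2 cells was -2.00 for Cdkn1a and -1.68 for Ccnd2.

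Of 19 kinases, cyclins and other partners that the 10 proteins act with, 5 were higher (26.3%) and 6 lower (31.6%) in FoxF1 than in wild type cells, and 8 were not called. In NFI-C2 cells 2 were higher (10.5%), 5 lower (26.3%) and 12 not called. These counts, and those of the lists that follow, stand beside 21.2% higher and 19.5% lower of all genes with FoxF1 and 9.18% higher and 12.8% lower with NFI-C2. Ccne1, which encodes cyclin E1, was lower in both lines, by a log2 difference of -0.95 with FoxF1 (SE 0.0769, adjusted p = 3.26e-05 by limma) and -0.66 with NFI-C2 (SE 0.0769, adjusted p = 0.000821). Cdk6 was higher in both, by 0.49 with FoxF1 (SE 0.0458, adjusted p = 7.35e-05) and 0.22 with NFI-C2 (SE 0.0458, adjusted p = 0.0119). Cdk4, the other kinase that INK4 proteins bind and named here after its values were seen, was 0.26 higher with FoxF1 (SE 0.0258, adjusted p = 9.65e-05) and differed by -0.03 with NFI-C2 (adjusted p = 0.534). Cdc25b, a phosphatase that activates CDKs, was 0.12 lower on the log2 scale in FoxF1 cells (a difference of -0.12, adjusted p = 0.0366) and 0.37 higher in NFI-C2 cells (adjusted p = 0.0004).

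Among the pocket proteins and E2F factors, 4 of 13 were higher and 3 lower in FoxF1 cells, whereas 0 were higher and 7 lower in NFI-C2 cells. E2f1, an activating E2F, was higher by 0.41 with FoxF1 (SE 0.0701, adjusted p = 0.00206 by limma) and lower with NFI-C2, at -0.68 (SE 0.0701, adjusted p = 0.000448). The factors E2f6 and E2f7, both known as repressors, were lower in NFI-C2 cells by differences of -0.80 and -0.56 (adjusted p = 0.000792 and 0.000188) and had differences of -0.16 and -0.08 in FoxF1 cells (adjusted p = 0.222 and 0.244). E2f4, which acts mostly with pocket proteins in resting cells, was 0.64 higher with FoxF1 (SE 0.0553, adjusted p = 4.72e-05). Rb1, which encodes the retinoblastoma protein, was 0.47 higher in FoxF1 than in NFI-C2 cells (SE 0.107, adjusted p = 0.00802). Against wild type cells it was lower with NFI-C2, at -0.37 (adjusted p = 0.0449), and differed by 0.10 with FoxF1 (adjusted p = 0.542).

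Of 20 known E2F target genes, most of them DNA replication genes, 19 were tested. With FoxF1 9 were higher and 2 lower, with a median difference of 0.24 beside 0.01 over all genes, and with NFI-C2 0 were higher and 9 lower, with a median of -0.27 beside 0.00. Between FoxF1 and NFI-C2 cells 15 were higher and 2 lower, beside 24.0% higher and 19.8% lower of all genes. The median difference there was 0.51, beside 0.00 over all genes. Cdt1, which loads the replicative helicase, was 0.70 higher in FoxF1 than in wild type cells (SE 0.0959, adjusted p = 0.000633 by limma). Pcna, the sliding clamp of DNA polymerase, was 0.16 higher with FoxF1 (adjusted p = 0.00716) and lower with NFI-C2, at -0.43 (adjusted p = 0.000154). The 2 that were lower with FoxF1 were Ccne1 and Tk1, the gene of thymidine kinase, at -1.14 (SE 0.0833, adjusted p = 1.88e-05).

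**Figure D3:**
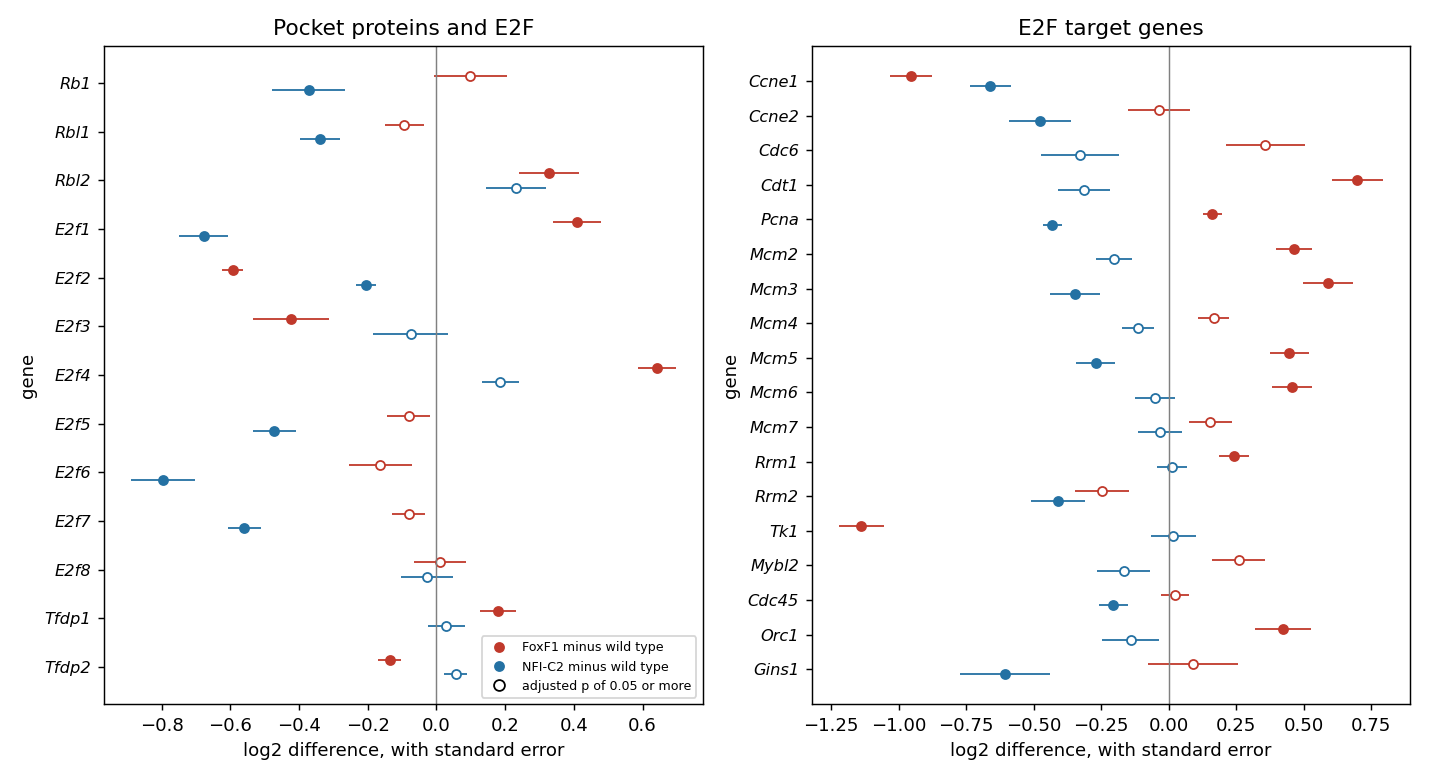
Log2 difference from wild type cells (horizontal axis, with its standard error) of the 13 pocket protein and E2F genes and of 18 of the 19 tested E2F target genes, in FoxF1 and NFI-C2 cells. Filled points had an adjusted p under 0.05. None of the filled NFI-C2 points lies above 0 in either panel, and 8 filled FoxF1 points lie above 0 among the E2F targets shown.

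Genes for the breakdown of these proteins showed 5 higher and 2 lower of 14 with FoxF1 and 0 higher and 3 lower with NFI-C2. Skp2, the F-box protein that marks p27 for destruction, was lower in NFI-C2 cells at -0.37 (SE 0.0758, adjusted p = 0.0114 by limma) and differed by 0.18 in FoxF1 cells (adjusted p = 0.106). Its cofactor Cks1b was 0.48 higher in FoxF1 cells (SE 0.0921, adjusted p = 0.00362), and Skp1a, a subunit of the same ligase, was lower there at -0.91 (SE 0.0946, adjusted p = 0.000134). Fbxo4 and Fbxo31, F-box proteins that act on cyclin D1, were higher with FoxF1 by 0.58 and 0.48 (adjusted p = 0.000414 and 0.00178), and Fbxo31 was lower with NFI-C2 at -0.34 (adjusted p = 0.019).

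The p53 pathway joins p19Arf to p21. HC11 descends from a mammary line known to carry mutated p53 alleles, and of 8 genes of p53 and its partners 2 were higher and 4 lower with FoxF1, and 1 was higher and 2 lower with NFI-C2. Hipk2, a kinase that acts on p53, was 1.41 higher in FoxF1 cells (SE 0.0532, adjusted p = 4.91e-07 by limma) and lower in NFI-C2 cells at -0.69 (SE 0.0532, adjusted p = 0.000118). Trp63, a p53 relative and one of the epithelial markers above, was lower in FoxF1 cells at -3.42 (SE 0.0773, adjusted p = 3.77e-08) and 0.77 higher in NFI-C2 cells (adjusted p = 0.0004). Mdm2, the ligase that degrades p53, was lower in both lines, at -0.43 and -0.28 (adjusted p = 0.000522 and 0.0107).

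Known p53 target genes other than Cdkn1a did not move as one group with it. Of the 19 tested, 10 were higher and 5 lower in FoxF1 cells, where Cdkn1a was lower, and 6 were higher and 4 lower in NFI-C2 cells, where Cdkn1a was higher. Phlda3, Perp and Fas, genes of cell death signalling, ran in the direction of Cdkn1a in both lines, with differences of -1.95, -1.57 and -0.58 in FoxF1 cells and 0.64, 0.43 and 0.96 in NFI-C2 cells (adjusted p of 2.04e-07, 8.77e-07 and 0.00637 with FoxF1 and 0.000324, 0.0028 and 0.00126 with NFI-C2, by limma). Plk2, a stress kinase, ran the other way, at 1.40 with FoxF1 (adjusted p = 2.22e-07) and -0.76 with NFI-C2 (adjusted p = 3.33e-05). Bax, Pmaip1 and Tnfrsf10b, also genes of cell death signalling, are named here after their values were seen. They were higher with FoxF1, by 0.70, 1.16 and 0.44 (adjusted p = 6.65e-05, 0.00685 and 0.00114). With NFI-C2 they differed by 0.09, -0.43 and -0.34 (adjusted p = 0.394, 0.306 and 0.00849). Sesn1 and Trp53inp1 were 1.16 and 1.22 higher in NFI-C2 cells (adjusted p = 4.76e-05 and 0.00707), and Sesn2 was 1.29 higher in FoxF1 cells (adjusted p = 4.91e-07).

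Of 34 tested transcription factors and chromatin proteins known to act on these inhibitors and cyclins, 6 were higher and 19 lower in FoxF1 cells, and 7 were higher and 9 lower in NFI-C2 cells. The inhibitors of differentiation Id1, known to hold down Cdkn2a by binding Ets factors, and Id2 were lower in FoxF1 cells at -1.64 and -1.62 (adjusted p = 2.01e-06 and 1.82e-06 by limma) and in NFI-C2 cells at -0.76 and -1.09 (adjusted p = 0.000501 and 7.93e-05). Tbx3, a T-box repressor of the Cdkn2a locus, was lower with FoxF1 at -0.76 (SE 0.0919, adjusted p = 0.000327) and 0.63 higher with NFI-C2 (SE 0.0919, adjusted p = 0.00242). Hes1, a Notch target that represses Cdkn1b, was lower with FoxF1 at -2.40 (SE 0.0747, adjusted p = 1.88e-07) and differed by 0.18 with NFI-C2 (adjusted p = 0.142). Mycn was lower in both lines, at -1.40 and -1.01 (adjusted p = 2.7e-05 and 0.000559). Runx1 and Tcf7l2 were lower with FoxF1, at -2.21 and -1.63 (adjusted p = 4.94e-07 and 5.19e-06).

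**Figure D4:**
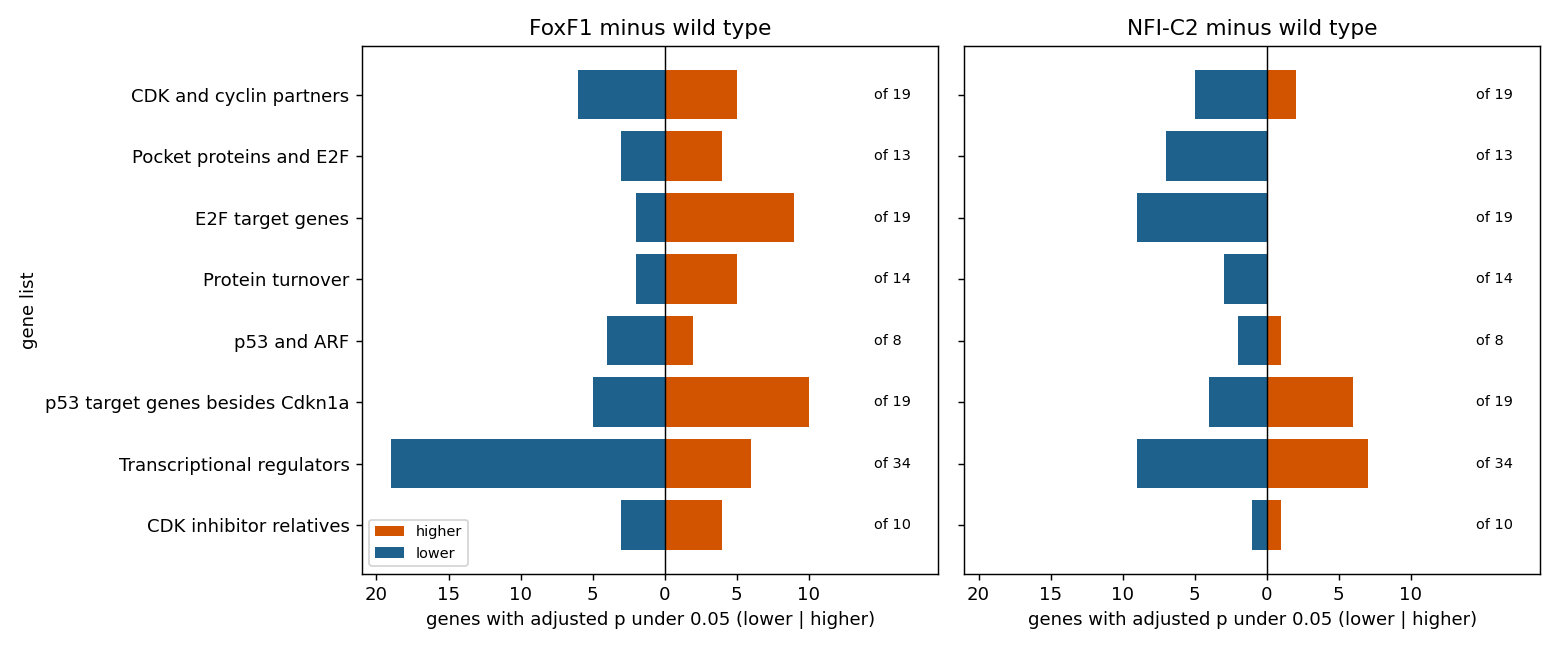
Number of genes called higher (right) and lower (left) in FoxF1 cells and in NFI-C2 cells, each against wild type cells, for 8 lists of genes around the 10 described here, with the number tested at the right of each row. The transcriptional regulators had 19 of 34 lower in FoxF1 cells, and the E2F lists had 0 higher in NFI-C2 cells.

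Among 10 relatives and partners of the inhibitors, 4 were higher and 3 lower with FoxF1, and 1 was higher and 1 lower with NFI-C2. Rgcc, a regulator of CDK1, followed the pattern of Cdkn1a, with a difference of -0.34 in FoxF1 cells (SE 0.0557, adjusted p = 0.00155 by limma) and 1.07 in NFI-C2 cells (SE 0.0557, adjusted p = 1.67e-05). Cdkn3, a phosphatase that acts on CDK2 in spite of its name, was 0.49 higher in FoxF1 cells (SE 0.0715, adjusted p = 0.000881) and differed by 0.20 in NFI-C2 cells (adjusted p = 0.0921). Over all tested genes, those with the 9 array values nearest to Cdkn2b by Euclidean distance were Nt5dc2 (0.33), Htra1 (0.39), Edg2 (0.40), Twist1 (0.437) and Eno2 (0.461), and those nearest to Cdkn1a were 1700055N04Rik (0.271), Dcun1d4 (0.363), Col8a1 (0.417), Scel (0.426) and Gtdc1 (0.428). These distances are in log2 units over 9 arrays and describe likeness of pattern only.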

How the data were processed

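Total RNA of 9 HC11 cultures was hybridized to Mouse Gene ST 1.0 arrays. The authors processed the arrays with RMA, whose version is not given in the sources used here, and deposited log2 values per transcript cluster. Each of the 28815 clusters had a median of 0 over the 9 arrays, and the authors' text names no centring. A second deposited table held the same values to within 5e-08, and the authors' table of p-values of an analysis of variance was not used. Gene symbols came from the annotation column of the deposited table, where 20727 clusters name 1 symbol, 1395 several and 6693 none. For genes with more than 1 cluster the one with the most probes was used, and 1261 genes equal on all arrays were left out. Of the 17962 tested genes, 3815 had 2 or more arrays at their lowest value, and none of the 10 genes did.

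Tests were made with limma 3.58.1 in R 4.3.3, as 3 group means in 1 fit with moderated variances and two-sided p-values (residual degrees of freedom 6, prior 1.33), with Benjamini-Hochberg adjustment over all tested genes and a threshold of 0.05. The fit was tested on simulated data. Python 3.11.15 with pandas 2.3.3 and NumPy 2.4.6 served to read the files and matplotlib 3.10.9 to draw. The number of arrays limits the precision. The 10 genes, the lists around them and the tests were chosen with earlier results of these data known. All 10 genes are named. From each list up to 4 called genes per comparison, by size of the difference, could be named, and the 5 genes nearest to the most changed inhibitor of each line. Alternatives changed the groups fitted, a replicate block, single arrays left out, the variance model, the scaling, the handling of ties and of several clusters, the value table and a fold criterion. The values of 1 listed gene are not reported here.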

Additional observations from a re-analysis of the deposited data

How the results depend on the processing

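The values for the 10 genes were recomputed under each alternative, 1 choice at a time, and 434 values kept direction and side of the threshold, 37 lost it, 2 gained it and 7 changed sign, leaving out of this count the subtraction of array medians (all 0) and the second value table (the same values), which could change nothing. The 434 include values that could change only in part. The cluster settings altered the values of Cdkn1b and Ccnd2 alone among the 10 genes. The groups fitted, the replicate block, the variance models and the handling of ties and of equal genes left every difference as it was and could move only the p-values. The fold criterion could only remove calls. With single arrays left out, 7 to 8 genes were called between FoxF1 and wild type cells, 5 to 7 between NFI-C2 and wild type cells and 8 to 9 between FoxF1 and NFI-C2 cells. Of all 17962 genes, 6637 to 7017, 3061 to 3603 and 7312 to 7578 were called in the same fits. Requiring a 1.5-fold change left 5, 3 and 5 genes in these comparisons, and 2982, 938 and 3479 of all genes in place of 7304, 3944 and 7863. The difference of Ccnd3 between FoxF1 and wild type cells became -0.005612 after quantile normalization. That of Cdkn2c between NFI-C2 and wild type cells became 0.04019 after it, 0.01753 and 0.01726 without wild type replicates 2 and 3, and ran from -0.06582 to 0.04579 over single arrays left out. With the Ccnd2 cluster of highest mean, the 9-probe one, the differences were -0.003838, -0.008494 and 0.004656. The values are centred, so the highest mean does not mark the cluster with the most RNA. The only transcript listed for the 9-probe cluster is one of Calm2, so this setting is no check of the Ccnd2 result. Cdkn1c and Ccnd1 lost their FoxF1 calls in a fit of those 2 groups alone (adjusted p = 0.1 and 0.117 by limma), with ordinary variances (0.0545 and 0.0701) and with the replicate number as a block (0.0536 and 0.0605), which called 7, 7 and 8 genes. The block fit called 7390, 4031 and 7931 of all genes in these comparisons. Whether arrays of the same number share more than a number is not given. Their deviations from the group means correlated at -0.004 to 0.18, beside -0.20 to 0.10 for arrays of different numbers. A pairing of arrays was not tested beyond this. Ccnd1 also lost its FoxF1 call after quantile normalization (0.179) and with equal genes kept (0.0546). The cause of these changes was not tested.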
